A study of Mus musculus with 6 samples.

Results

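The 84 genes described here encode the proteins of the cytosolic ribosome in mouse immune cells of the brain. They were chosen by name alone: symbols beginning with Rpl or Rps and a digit, plus Rplp0, Rplp1, Rplp2 and Rpsa, without the Rps6 kinases and without symbols marked as pseudogenes. Of 86 symbols that match, 84 of the 31053 genes in the table held 50 or more unique molecular identifiers (UMIs, tags that count single captured RNA molecules) and were kept. Rpl3l (21 UMIs) and Rpl10l (2 UMIs), which are paralogs of Rpl3 and Rpl10, fell under that limit and are not described further. Together the 84 genes held 5647271 UMIs, or 5.35% of all 105560763. The symbol rule also takes in Rps19bp1, which encodes a protein that binds Rps19 rather than a ribosomal subunit.

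The cells came from female SCID mice, which lack T and B cells, with U87 human glioma cells grown in the right hemisphere. The 50000 implanted cells were stable transfectants carrying either IL-33 or the empty pcDNA 3.1 vector, with 3 mice per group, labelled as 6 to 8 weeks of age. Brains were taken at 3 weeks for IL-33 and at 6 weeks for pcDNA, so vector and time after implantation cannot be told apart. CD45+ cells sorted from the tumor-bearing hemisphere were captured with the 10x Chromium 3′ v2 chemistry, and the reads were aligned to the mouse genome. One pooled table was used, whose 40411 barcodes carry a suffix from 1 to 6. The labels do not tie a suffix to a mouse or a vector, so the table was treated as 1 pooled sample. The vectors were not compared, the suffixes are given as a range, and no statistical test was run. The 95% intervals below are exact Poisson or binomial intervals and cover counting error only.

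Ribosomal proteins pair with ribosomal RNA to form a small subunit, which reads the mRNA, and a large subunit, which joins amino acids. Their mRNAs are among the most abundant in most cells, and many begin with a run of pyrimidines (C or T), the TOP motif, through which growth signals adjust their translation together. In microglia, the resident macrophages of the brain, these mRNAs are commonly read as a gauge of translational activity or of RNA quality, usually as 1 summed share.

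To show the promoter feature for which the family is known, 30 bases are given, from 10 before to 20 after the first base of the gene. First come 4 subunit genes whose windows hold a run of 8 or more C or T bases. The other 5 are members with low levels or a changed share in the results below. Rpl28 and Rpl38 of the first 4 also changed in share in some gates, so the split is not a contrast. The longest run of C and T is in capitals, and the sequences are RefSeq entries on GRCm38.p6.
Rpl35, chr2:39005112-39005141, minus strand: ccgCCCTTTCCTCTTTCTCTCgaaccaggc
Rpl28, chr7:4792955-4792984, plus strand: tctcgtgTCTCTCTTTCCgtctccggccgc
Rpl38, chr11:114668570-114668599, plus strand: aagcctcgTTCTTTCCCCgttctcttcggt
Rps6, chr4:86857348-86857377, minus strand: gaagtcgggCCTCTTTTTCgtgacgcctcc
Rpl22l1, chr3:28805498-28805527, plus strand: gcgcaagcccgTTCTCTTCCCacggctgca
Rplp0, chr5:115559457-115559486, plus strand: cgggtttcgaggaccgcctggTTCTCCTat
Rps28, chr17:33824543-33824572, minus strand: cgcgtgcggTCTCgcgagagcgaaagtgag
Rpl7l1, chr17:46782637-46782666, minus strand: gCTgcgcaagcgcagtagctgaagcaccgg
Rps19bp1, chr15:80264287-80264316, minus strand: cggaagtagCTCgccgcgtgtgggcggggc
Promoter entries matched 64 of the 84 members. A run of 8 or more C or T bases on the sense strand was found in 21 of the 64, or 32.8%, against 11.2% of 27025 promoters of all genes. The median longest run was 6 bases in the members and 4 in all promoters. The letters TCTTTC occurred within 50 bases before to 50 after the start in 21.9% of the members and 3.82% of all promoters on the sense strand, and in 4.69% and 3.57% on the other strand. In Rpl35, Rpl28 and Rpl38 the capitals include these letters. No run of 8 or more is seen in the windows of Rplp0, Rps28, Rpl7l1 and Rps19bp1, as in most of the 64 matched members. This says only that such a run is not in these 30 bases.

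The suffixes held 9745192 to 24393841 UMIs with medians of 1536 to 3503 UMIs per barcode. Barcodes with 200 or fewer genes, over 2500 genes or 5% or more mitochondrial counts were dropped, which left 38751 cells. Cells were sorted into gates by marker genes that exclude ribosomal protein genes. The microglia gate (Tmem119, P2ry12, Cx3cr1 and 3 others) held 36949 cells, 95.3% of those kept. Far smaller gates held 236 cells with choroid plexus markers (Ttr and others), 218 Ly6c2 monocytes, 120 natural killer (NK) cells, 51 granulocytes and 48 Cd209a dendritic cells. Within or beside the microglia gate, 4 states named after their genes were followed, and they overlap each other and the gate. These are 3062 Ccl2 and Ccl12 high cells, 2323 Spp1 positive Apoe high cells, 1926 Ddit4 positive cells and 437 cycling cells. No doublets were called, and 60 barcodes that met 2 lineage gates were left out. Cst3, which microglia express strongly, stood at 63958 CPM (UMIs of a gene in every 1000000 UMIs) in the microglia gate. It was at 3763 in the NK gate, 5414 in granulocytes, 4826 in monocytes and 6066 in dendritic cells. C1qa stood at 1017, 704, 275 and 98.9 CPM in the same 4 gates, against 10068 in microglia. Tmem119 stood at 110, 20.1, 22.0 and 19.8 CPM, against 2454. All 3 genes belong to the microglial RNA list used in gating, so these contrasts are partly set by the gates. The part of free or microglial RNA in the values of the small gates was not tested.

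Many barcode sequences recur under more than 1 suffix, and this touches several results below. A total of 3890 sequences appear under 2 or more suffixes, and they make up 14722 of the 40411 barcodes, or 36.4%. Pairs of suffixes share 509 to 3428 sequences, and the UMI totals of the copies follow each other across barcodes (Spearman rho 0.800 to 0.971 over the 15 pairs). Shared barcodes of the microglia gate had a median of 731 to 1125 UMIs by suffix, and unshared barcodes a median of 2734 to 3719. They were 13665 of the 36949 microglia and 1835 of the 1926 Ddit4 positive cells, but 5 of the 120 NK cells and 13 of the 218 monocytes. Results are therefore given for all kept cells and again for the barcodes found under a single suffix.

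Over all kept cells the members spread widely in level. A 3′ UMI assay counts about 1 tag per molecule, so levels were not divided by gene length. Rps29, which encodes a small zinc-binding protein of the small subunit, was highest at 2124 CPM (95% interval 2115 to 2133). The large subunit genes Rpl13 (1555 CPM) and Rpl10 (1332 CPM) and the small subunit gene Rps27 (1319 CPM) were also among the 5 highest. The intervals of Rpl10 (1324 to 1339 CPM) and Rps27 overlapped, so their order is not set by these counts. The top 5 members held 15.0% of the ribosomal protein UMIs and the top 10 held 25.4%. The median member stood at 576 CPM, and 52 members were above 500 CPM.

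At the low end stood paralogs and non-subunit genes. Rpl39l, a paralog of Rpl39, was lowest at 2.88 CPM and was the 1 member under the 20 CPM limit for comparisons, which leaves 83 members and 5420 genes in all. Rps19bp1 (39.4 CPM), Rps27rt (41.1 CPM), Rpl29 (45.9 CPM) and Rpl7l1 (80.7 CPM) followed. Of these, Rpl29 is the only gene that encodes a standard subunit protein. The 33 Rps symbols other than Rps19bp1 held 43.3% of the ribosomal protein UMIs.

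Sequence shared between members limits how some of them can be read. Rps27rt has 89.5% of its 98-base windows in common with Rps27, the length of the sequenced read. Its UMIs were 0.0309 of those of Rps27 in microglia, between 0.0278 and 0.0416 in the gates, and between 0.0177 in suffix 3 and 0.0444 in suffix 6 of the microglia. These 2 genes cannot be told apart well with such reads, and the Rps27rt values may follow those of Rps27. In all, 20 of the 84 members share such windows with another gene in the table, among them Rpl10 with a listed pseudogene, and Rpl13, Rpl13a and Rpl36al overlap another gene on the same strand. With annotated genes outside the table counted as well, 59 members share such windows. For 33 members more than 50% of the windows are shared with genes in or outside the table. These counts speak only of the stretch the windows cover and not of whole genes. The part of shared sequence in the levels of these members was not tested.

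**Figure D1:**
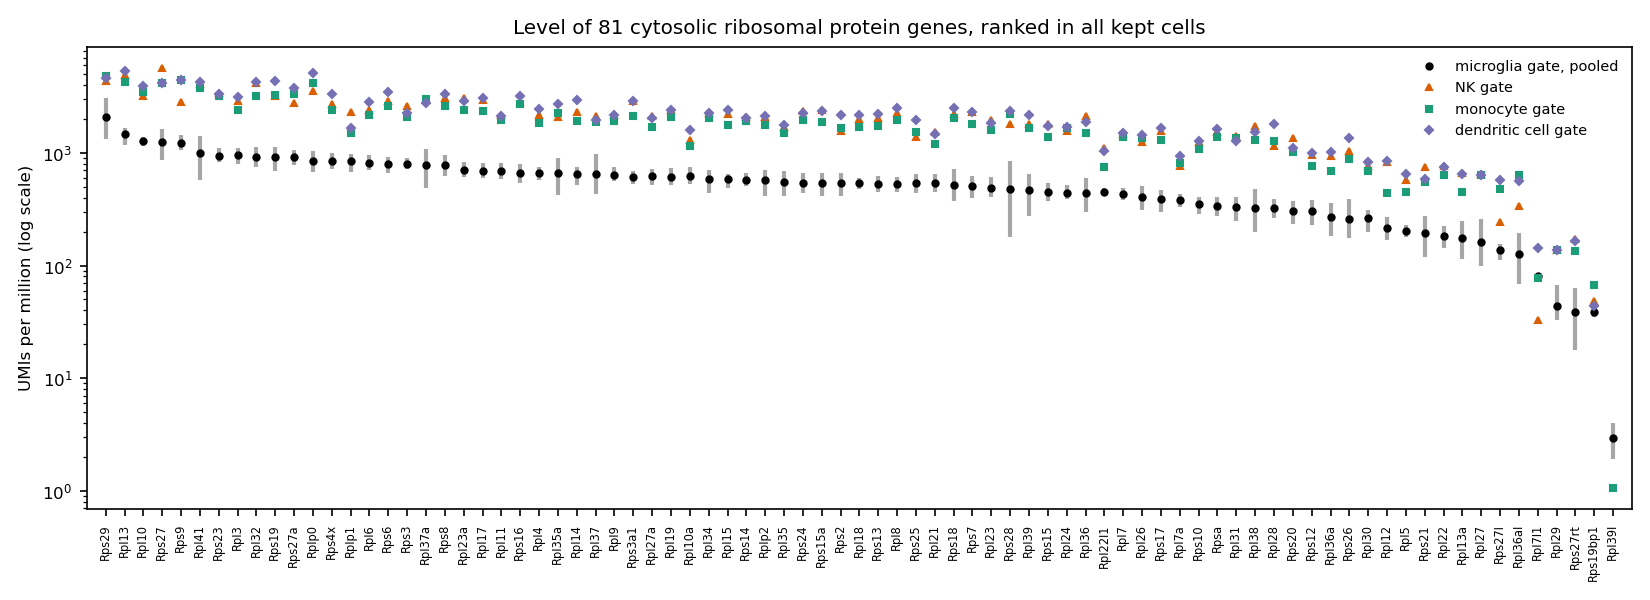
Level of 81 members in CPM on a log axis, ranked from highest to lowest over all kept cells, with points for the microglia, NK, monocyte and dendritic cell gates and a grey bar from the lowest to the highest suffix in microglia. Rps29 is first in the ranking and Rpl39l last, gates in which a gene had no UMI have no point, and the NK, monocyte and dendritic points lie above the microglial ones for most members.

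NK cells, monocytes and dendritic cells carried more of nearly every member than microglia did. NK cells are cytotoxic lymphocytes, Ly6c2 monocytes enter tissue from blood, and Cd209a dendritic cells present antigen. Ribosomal protein UMIs made up 17.1% of all UMIs in NK cells, 15.4% in monocytes and 18.5% in dendritic cells, against 4.88% in microglia. The ratios to microglia were 3.50 (3.47 to 3.54), 3.16 (3.14 to 3.18) and 3.79 (3.76 to 3.83). These cells lay mainly under suffixes 4 to 6, where microglia also had a higher share. Within a suffix the ratios were lower, at 3.06 to 3.36 for NK cells, 2.78 to 2.94 for monocytes and 3.23 to 3.55 for dendritic cells. Without the shared barcodes the ratios were 3.41, 3.08 and 3.75.

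A member was called where its CPM differed by 1.5-fold or more on the same side in every suffix with 20 or more cells of both gates. In NK cells 81 of 83 members were called higher, against 25.6% of all 5420 genes, and 1 was called lower, against 31.5%. In monocytes 82 members were called higher, against 22.8% of all genes. In dendritic cells 82 were called higher, against 25.8%. The median member ratio was 3.60 in NK cells, 3.34 in monocytes and 3.82 in dendritic cells, while the median over all genes was 0.998, 0.934 and 0.942. The counts were the same without shared barcodes, with 81, 82 and 82 members higher against 25.8%, 22.9% and 27% of all genes.

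The member called lower in NK cells was Rpl7l1, a paralog of Rpl7. It had 8 UMIs in the NK gate, or 32.5 CPM, against 80.8 CPM in microglia, a ratio of 0.403 (0.174 to 0.794). By suffix its level was 50.3 CPM in suffix 4 and 25.8 CPM in suffix 6, against 81.7 and 82.1 CPM in microglia. In monocytes it did not move with the family, at 75.9, 87.2 and 81.7 CPM in suffixes 4, 5 and 6 against 81.7, 79.1 and 82.1 CPM in microglia. Its level thus stayed near that of microglia in monocytes and was below it in NK cells. In dendritic cells, where it had 36 UMIs, it was above microglia in CPM, as were all 83 tested members. Per UMI of Rpl7, Rpl7l1 was at 0.186 in microglia, 0.0220 in NK cells, 0.0563 in monocytes and 0.0945 in dendritic cells.

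Since the whole family differed between gates, each gene was also counted per 1000 ribosomal protein UMIs, which asks whether its share within the family changed. On this scale most members stayed close to 1. The middle 50% of the 83 ratios lay between 0.886 and 1.15 in NK cells, 0.872 and 1.12 in monocytes, and 0.886 and 1.14 in dendritic cells. A 1.5-fold fall on the same side in every suffix was called for 7 members in NK cells, against 88.6% of all genes, and a 1.5-fold rise for 1, against 1.03%. The first background is high because any gene outside the family falls when divided by a family that rose.

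Members of the stalk of the large subunit differed in their proportion to each other between gates. Rplp0, Rplp1 and Rplp2 encode the P proteins, which form the stalk where elongation factors bind. In monocytes, Rplp0 stood at 4324, 4450 and 4193 CPM in suffixes 4, 5 and 6, against 1027, 1033 and 995 CPM in microglia of the same suffixes. Rplp1 stood at 1472, 1723 and 1439 CPM, against 983, 986 and 950 CPM. The monocyte and microglia values did not overlap for either gene, but Rplp0 was farther apart. Dendritic cells showed the same order, with 5421 and 5183 CPM of Rplp0 and 1664 and 1654 CPM of Rplp1 in suffixes 4 and 6. Per UMI of Rplp1, Rplp0 was at 1.01 (1.00 to 1.02) in microglia, 1.53 (1.38 to 1.70) in NK cells, 2.82 (2.66 to 3.00) in monocytes and 3.09 (2.77 to 3.46) in dendritic cells. Within suffixes the ratio was 0.799 to 1.11 in microglia, 1.48 to 1.60 in NK cells, 2.58 to 2.94 in monocytes and 3.13 to 3.26 in dendritic cells.

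Rpl22 and its paralog Rpl22l1 also changed in proportion. Rpl22 encodes an RNA-binding protein of the large subunit, and Rpl22l1 can take its place. Microglia held 2.45 (2.41 to 2.50) UMIs of Rpl22l1 for each of Rpl22, or 2.37 (2.32 to 2.41) over unshared barcodes. The ratio also moved with depth in microglia, from 3.40 at 500 to under 1000 UMIs per cell to 2.06 at 5000 or more. Monocytes held 1.17 (1.05 to 1.30), dendritic cells 1.39 (1.15 to 1.69) and NK cells 1.45 (1.2 to 1.75). In monocytes Rpl22 stood at 649, 676 and 638 CPM in suffixes 4, 5 and 6 against 224, 218 and 220 CPM in microglia, and Rpl22l1 at 707, 807 and 735 CPM against 491, 479 and 460 CPM. Both were above microglia in each suffix, Rpl22 by more. Among microglia the same ratio ran from 2.09 in suffix 6 to 2.9 in suffix 2, above the 3 small gates in every suffix.

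Further members stood out in 1 or more of these gates. In NK cells the highest share against microglia was that of Rpl38, a large subunit gene known from a mouse mutant with skeletal defects. Its level was 1976 CPM in suffix 4 and 1597 CPM in suffix 6, against 390 and 306 CPM in microglia, and its ratio per 1000 ribosomal protein UMIs was 1.51 (1.37 to 1.67), or 1.40 without shared barcodes. Rpl36 (1.38), Rps3a1 (1.36), Rps7 (1.32) and Rps27 (1.29) followed on this scale. The lowest after Rpl7l1 (0.115) were Rps19bp1 (0.359), Rps27l (0.512), Rpl7a (0.572) and Rpl10a (0.588). In monocytes Rpl36al (1.59), Rps28 (1.49), Rps16 (1.30) and Rpl31 (1.29) were high beside Rplp0 (1.56), and Rpl10a (0.575) was low beside Rplp1 (0.558). Without shared barcodes the first 2 of these were at 1.44 and 1.36. Rps28 differed between suffixes in monocytes, at 2400, 3795 and 1590 CPM, and microglia had the same order, at 608, 845 and 428 CPM. In dendritic cells Rpl28 (1.46), Rps26 (1.36) and Rps28 (1.31) were high and Rps29 (0.589) was low. Rps19bp1 was at 0.546 in monocytes and 0.295 in dendritic cells, and Rpl7l1 at 0.304 and 0.464. The 3 gates share the same microglia as their reference.

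Genes of related function that fall outside the symbol rule were counted by the same call in these gates. Fau, which encodes a ribosomal protein fused to a ubiquitin-like sequence, was called higher in NK cells, monocytes and dendritic cells. Of 16 elongation factors and other TOP mRNAs, 16 were called higher in NK cells, 15 in monocytes and 16 in dendritic cells, with median ratios of 2.68, 2.50 and 3.25. Of 71 mitochondrial ribosomal protein genes tested, 31, 29 and 34 were higher and 5, 1 and 2 were lower, with median ratios of 1.38, 1.42 and 1.5. Of 9 ribosome biogenesis genes tested, 5, 3 and 6 were higher and 1, 2 and 0 lower. Over all genes 25.6%, 22.8% and 25.8% were called higher and 31.5%, 30.7% and 34% lower, so the biogenesis genes in monocytes stood near the background.

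**Figure D2:**
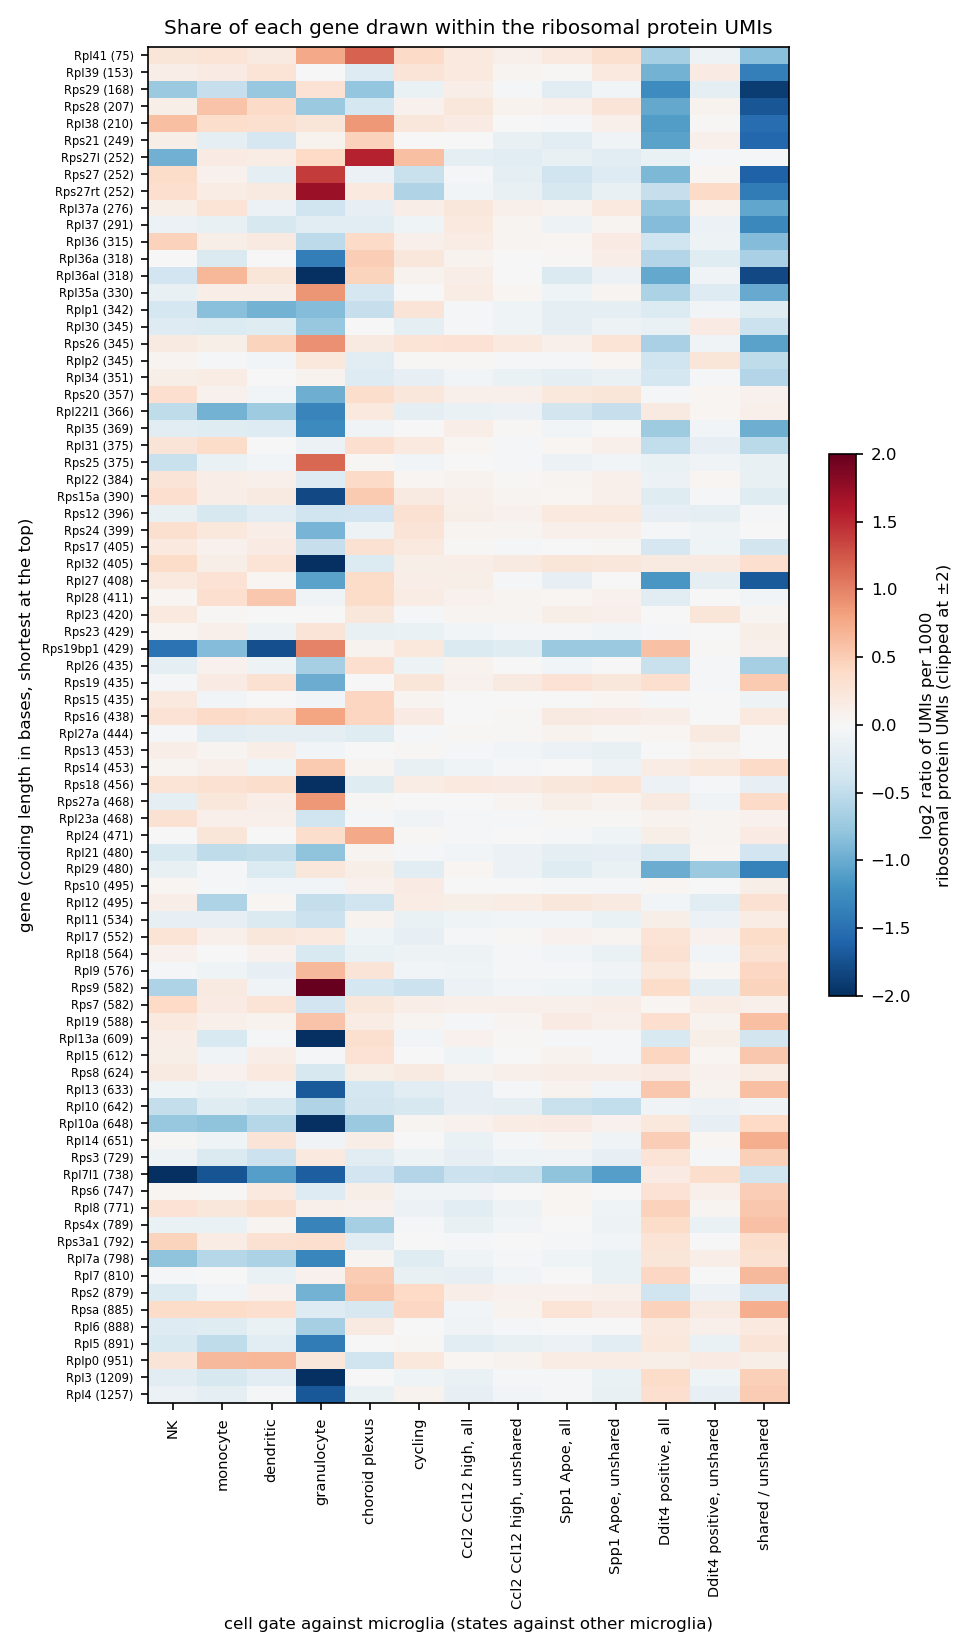
Share of 80 tested members within the ribosomal protein UMIs in each gate against microglia, or for a state against the other microglia, as a log2 ratio of UMIs per 1000 ribosomal protein UMIs clipped at 2 on either side, with genes ordered by coding length from the shortest at the top. The Ddit4 positive and Spp1 positive Apoe high states and the Ccl2 and Ccl12 high state are drawn for all and for unshared barcodes, and the last column compares shared with unshared barcodes. The Ddit4 positive column over all barcodes turns from low at the top to high at the bottom, while Rplp0 is high and Rplp1 low in the monocyte and dendritic columns.

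Granulocytes, short-lived cells with little RNA, had a lower share of ribosomal protein UMIs than microglia, and part of the family differed in proportion. The share was 3.81%, a ratio of 0.781 (0.747 to 0.817), or 0.740 without the 7 shared barcodes. The granulocyte markers themselves stood at 175875 CPM in this gate, against 246 CPM in microglia. They are part of the total, which lowers the CPM of every other gene, and their part in the lower share was not tested. The gate held 51 cells and 1893 ribosomal protein UMIs with no suffix reaching 20 cells, so values are pooled. Called lower were 43 of 83 members, against 60.4% of all genes, and 5 were higher, against 16.9%. Per 1000 ribosomal protein UMIs, 30 were called lower, against 53.4%, and 11 higher, against 22.6%. These calls rest on the pooled ratio alone. In this gate 3 counts equal 60.4 CPM, so genes near the 20 CPM limit can pass on very few UMIs and the backgrounds are uncertain. The median member ratio was 0.65 and that of all genes 0.458, but most other genes have lower counts, so the 2 medians are not alike. Rps9, a small subunit gene, stood at 3844 CPM against 1238 CPM in microglia, a ratio of 3.11 (2.68 to 3.58). Rps27 (2.06) and Rps25 (1.73) were also called higher. So were Rps27rt and Rps19bp1, but on 5 and 3 UMIs and with intervals that held 1 (0.842 to 6.06 and 0.320 to 4.54). Rpl3, which encodes a protein near the catalytic center, had 7 UMIs or 141 CPM against 959 CPM, a ratio of 0.147 (0.0590 to 0.303). Rpl13a had no UMI in 49683, which at a floor of 3 counts allows up to 60.4 CPM, at least 2.89-fold lower than the 174 CPM of microglia.

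Cells with choroid plexus markers, the epithelium that makes cerebrospinal fluid, had a summed share close to that of microglia, while a few members differed in proportion. The share was 5.10% with a ratio of 1.05 (1.03 to 1.06), 0.848 to 1.24 within suffixes, and 1.05 without shared barcodes. The within-suffix values lay on both sides of 1. Ttr held 286794 CPM in this gate, and the ratio without Ttr was not computed. With mitochondrial genes, Malat1 and other genes above 1% of the counts of the whole table left out of the total, the ratio was 0.887. Over all kept cells the choroid plexus markers together, Ttr among them, stood at 1952 CPM, which is under that limit. These ratios lay on both sides of 1, so no direction is given. Called higher were 4 members, against 9.61% of all genes, and 3 were lower, against 40.7%. Without suffix 4 the first count was 9 and without suffix 5 it was 7. Per 1000 ribosomal protein UMIs, 4 members were called higher, against 9.61% of all genes, and 3 lower, against 38.3%. The called members were thus a smaller part of the family than of all genes. Rps27l, a paralog of Rps27, stood at 423, 370, 220, 499 and 494 CPM in suffixes 1, 2, 4, 5 and 6, against 113, 140, 154, 138 and 147 CPM in microglia. Every suffix was above microglia, and the ratio per 1000 ribosomal protein UMIs was 2.91 (2.55 to 3.30). Rpl41, which encodes the shortest of the proteins, stood at 1902, 1593, 2312, 3229 and 3005 CPM against 570, 818, 1333, 1419 and 998.7 CPM, a ratio of 2.26 per 1000. Rpl38 (1.82) and Rpl24 (1.69) were also higher on this scale, and Rps29 (0.587), Rpl10a (0.597) and Rps4x (0.629) were lower.

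Among the states within microglia, cycling cells had a modestly higher share, with Rps27l again among the highest. The share was 6.07%, a ratio of 1.25, or 1.05 to 1.23 within suffixes and 1.25 without shared barcodes. Called higher were 7 members, against 11% of all genes, and 12 without suffix 5. Summed granulocyte markers stood at 2522 CPM in these cells against 246 CPM in the microglia gate, and monocyte markers at 83.9 against 18.5 CPM. Over the 423 cycling cells with no UMI of a granulocyte marker, against microglia with none, the ratio was 1.25 and 8 members were called higher, against 11.2% of all genes. In cycling cells Rps27l stood at 234, 311, 251, 269 and 223 CPM in suffixes 1, 2, 4, 5 and 6, against 112, 138, 150, 136 and 145 CPM in the other microglia. The groups did not overlap, and the ratio per 1000 was 1.52 (1.37 to 1.67). Rpsa, which encodes a small subunit protein also known as a laminin receptor, was at 1.34 per 1000, with 1.24 to 1.63 by suffix. Rpl41 (1.31) and Rps12 (1.24) followed, and Rps27 (0.738), Rps9 (0.744) and Rpl10 (0.798) were lower. Per UMI of Rps27, Rps27l stood at 0.219 in cycling cells, 0.342 in choroid plexus cells, 0.109 in microglia and 0.0430 in NK cells. Within microglia this ratio was 0.207 in shared and 0.0996 in unshared barcodes, and 0.249 at 500 to under 1000 UMIs per cell.

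Ccl2 and Ccl12 high microglia, which express these chemokine genes strongly, differed from the other microglia by about the same amount in nearly every member. The share was 5.88%, a ratio of 1.24 (1.24 to 1.24), with 1.03 to 1.33 within suffixes and 1.22 without shared barcodes. The median member ratio was 1.24 against 0.960 over all genes. Called higher was 1 member, against 1.88% of all genes, and it was lost without suffix 2, 4 or 5, while 2 were called without suffix 3. Only 5.81% of these cells were shared barcodes, against 37.0% of the microglia gate as a whole. They were 1.06% of the microglia with 500 to under 1000 UMIs and 19.8% of those with 5000 or more. The summed share of all microglia in these 2 bins was 3.82% and 5.94%, and the part of depth in the ratio of 1.24 was not tested. The ratio at 1000 to under 3000 UMIs, which was lower, is in the closing section. Rps26 was highest per 1000 at 1.23, which became 1.15 without shared barcodes, and Rpl8 was lowest at 0.865, which became 0.929.

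Spp1 positive Apoe high cells, a state named from genes of lipid handling and matrix, had a higher share than microglia. It was 7.07% of UMIs, a ratio of 1.49, with 1.14 to 1.52 within suffixes. Called higher were 30 of 83 members, against 4.61% of all genes. Of these cells 338 lay outside the microglia gate. Microglial markers stood at 6740 CPM against 13448 CPM in the microglia gate, monocyte markers at 50.1 against 18.5 CPM and border macrophage markers at 23.5 against 5.07 CPM. Over the 1985 cells inside the gate the ratio was 1.47 and 29 members were called higher, against 4.11% of all genes. Shared barcodes were 61.5% of the state, and without them the ratio was 1.67 and 72 members were called higher, against 5.5% of all genes. Rps19 stood at 1298, 1458, 1365, 1624, 1716 and 1776 CPM in suffixes 1 to 6, against 768, 802, 688, 1029, 1066 and 988 CPM, with no overlap. Rpl10 did not rise in step, at 1241, 1191, 1193, 1403, 1441 and 1601 CPM against 1341, 1144, 1396, 1273, 1335 and 1330 CPM. Its ratio per 1000 was 0.731 (0.715 to 0.748), and Rpl7l1 (0.570), Rps27 (0.757) and Rpl22l1 (0.777) were low as well. Rpsa (1.21) and Rpl32 (1.18) were high beside Rps19 (1.23). None of these ratios changed side without shared barcodes.

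Ddit4 positive microglia were nearly all shared barcodes. Ddit4 is a stress gene that restrains mTOR signaling. The share was 4.21%, a ratio of 0.859, with 0.694 to 1.02 within suffixes, and 21 members were called lower against 4.76% of all genes. Over the 91 unshared cells of this state the ratio was 1.03 and 1 member was lower, against 7.07%. Rps29 stood at 590, 615, 1600, 849, 799 and 1320 CPM in suffixes 1 to 6, against 1363, 1810, 2795, 2408, 3204 and 1925 CPM in other microglia. Its ratio per 1000 was 0.420 and became 0.886 without shared barcodes. Rpl27 went from 0.449 to 0.879, Rpl38 from 0.461 to 1.01 and Rps21 from 0.474 to 1.07. At the other end Rpl13 went from 1.45 to 1.05.

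Shared and unshared barcodes of the microglia gate were also compared with each other in the same range of 1000 to under 2000 UMIs. This range held 4591 shared and 2482 unshared cells, and the pooled summed share was 4.47% and 4.23%. By suffix it ran from 4.27% to 5.34% in shared and from 2.54% to 5.61% in unshared barcodes, with the shared barcodes higher in 4 of 6 suffixes, so no direction is given. The mixture differed in the same direction in every suffix for part of the family. Shared barcodes carry the same sequences under several suffixes, so their suffixes cannot be counted as separate observations. Per 1000 ribosomal protein UMIs, 18 of 83 members were 1.5-fold or more lower in the shared barcodes on the same side in all 6 suffixes, against 13% of all genes, and 6 were higher, against 3.25%. Rps29 stood at 13.1 in shared and 49.1 in unshared barcodes, a ratio of 0.268 (0.257 to 0.279). Rpl36al (0.286), Rps28 (0.305), Rpl27 (0.311), Rps27 (0.33), Rps21 (0.34) and Rpl38 (0.35) were also low. Rpsa (1.66), Rpl14 (1.66), Rpl7 (1.56), Rpl19 (1.53) and Rpl13 at 1.51 (1.46 to 1.56) were high.

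The shared barcodes of different suffixes resembled each other more than the unshared ones did. They carry recurring sequences by definition, and the part of this in their resemblance was not tested. Rps29 stood at 13.1, 12.6, 12.5, 13.2, 14.5 and 11.5 per 1000 in the shared barcodes of suffixes 1 to 6. In the unshared barcodes it stood at 31.6, 44.7, 50.8, 46.5, 61.6 and 32.5, so the 2 sets did not overlap. Rps28 ran from 3.21 to 3.96 in shared and from 3.79 to 16.8 in unshared barcodes. Rpl13, which was higher in the shared barcodes, ran from 43.5 to 47.2 in shared and from 26.1 to 40.0 in unshared barcodes. Over the 52 members above 500 CPM, the highest suffix was a median of 1.21 times the lowest in shared barcodes and 1.41 times in unshared ones, and 42 of the 52 were wider in the unshared barcodes. Suffix 3 held only 43 shared cells in this range.

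The ratio of shared to unshared barcodes followed the length of the coding sequence. Coding lengths of the 84 members, taken from the GENCODE M21 transcripts, ran from 75 to 1257 bases. The 11 tested members under 300 bases had a median ratio of 0.381, and all 11 were below 1, although for Rps27l (0.977) the counting interval held 1. The 30 members of 300 to under 450 bases had a median of 0.872, with 21 below 1. The 19 members of 450 to under 600 bases had a median of 1.17 and the 23 of 600 bases or more a median of 1.39, with 4 below 1 in each. Across the 83 genes Spearman rho between coding length and the ratio was 0.768, and between transcript length and the ratio 0.522, a description over genes that share the same libraries and cells. Rps29 has 168 coding bases, Rps28 207, Rplp0 951. For the Ddit4 positive state rho was 0.769 over all barcodes and 0.0921 over unshared ones, and for Ccl2 and Ccl12 high cells -0.573 and -0.0845. For the ratio of deepest to shallowest UMI bin, described below, it was -0.777 and -0.337. For Spp1 positive Apoe high cells it was 0.172 and -0.247, so the correlation did not vanish everywhere without shared barcodes. In NK cells it was -0.155 and 0.0180. The part of barcode sharing, of read-level filters and of RNA quality in this pattern was not tested.

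**Figure D3:**
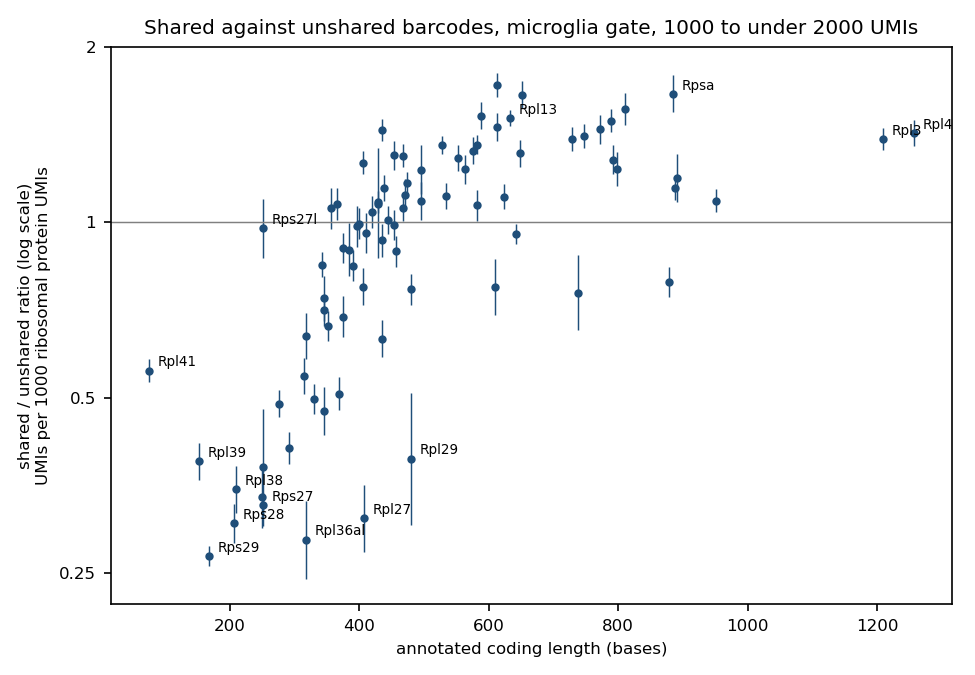
Ratio of shared to unshared barcodes in UMIs per 1000 ribosomal protein UMIs, on a log axis, against annotated coding length in bases, for microglia with 1000 to under 2000 UMIs and with 1 point per tested member and bars for its 95% counting interval. The 11 members under 300 bases all lie below 1, with Rps29 lowest at 0.268, and most members of 600 bases or more lie above 1.

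Microglia were also arranged by UMIs per cell. The summed share rose from 3.82% at 500 to under 1000 UMIs to 4.38%, 4.30%, 5.11% and 5.94% in the bins up to 5000 or more UMIs, and without shared barcodes it was 3.49%, 4.23%, 4.25%, 5.10% and 5.95%. Shared barcodes were 91.9%, 64.9%, 9.98%, 4.71% and 4.66% of these bins. In CPM, 44 of 83 members were called higher in the deepest than in the shallowest bin, against 7.6% of all genes, and 62 were without shared barcodes, against 5.24%. Per 1000 ribosomal protein UMIs, 18 members were called higher, against 2.18%, and 4 lower, against 52.2%.

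Several genes that rose with UMIs per cell lost most of this slope when shared barcodes were removed. Rps29 stood at 14.6, 26.5, 44.9, 47.1 and 45.4 per 1000 over the 5 bins, and at 38.2, 49.1, 47.6, 47.5 and 45.6 without shared barcodes. Rps28 stood at 3.69, 6.74, 9.69, 10.6 and 11, and at 10.7, 12.0, 10.2, 10.6 and 11 without them. Rpl13 stood at 46.9 in the shallowest and 27.4 in the deepest bin, and at 35.9 and 27.4 without them. The ratio of deepest to shallowest bin went from 3.12 to 1.19 for Rps29, from 2.97 to 1.03 for Rps28, from 2.88 to 1.12 for Rpl29 and from 2.64 to 1.08 for Rps21. Over the unshared barcodes 0 members were called higher, against 0.203% of all genes, and 0 were called lower, against 26.3%. At the low end the change differed by gene. The ratio went from 0.636 to 0.525 for Rpl7l1, from 0.590 to 0.683 for Rps19bp1 and from 0.585 to 0.764 for Rpl13. It went from 0.652 to 0.794 for Rpl4, and from 0.637 to 0.920 for Rpl8, which lost most of its slope.

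**Figure D4:**
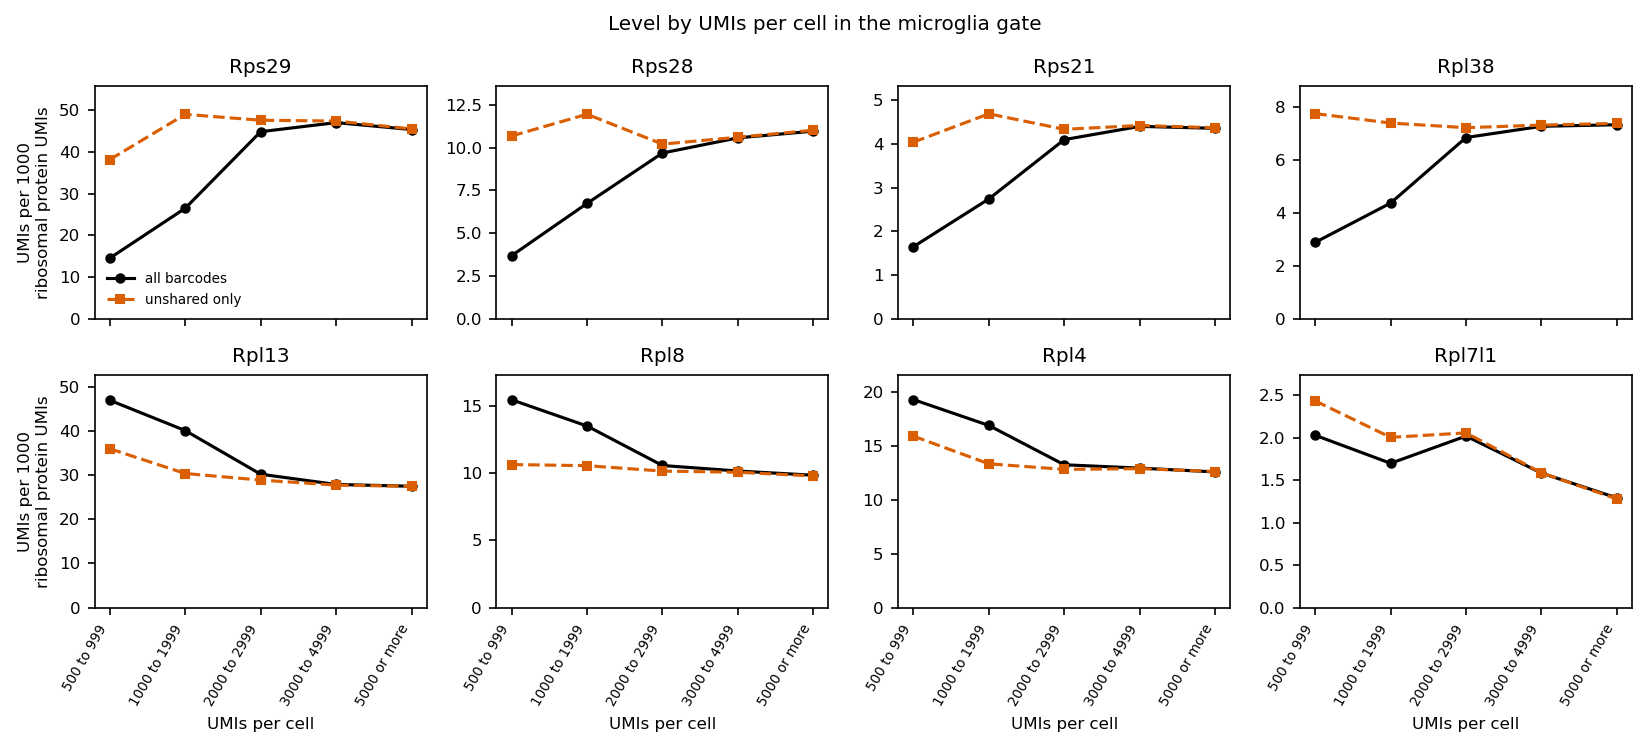
UMIs per 1000 ribosomal protein UMIs against UMIs per cell in 5 bins of the microglia gate, for named members, over all barcodes and over unshared barcodes alone, with points as values. Rps29 and Rps28 are far higher in the deepest than in the shallowest bin over all barcodes and differ much less over unshared ones. Rpl7l1 is lower in the deepest than in the shallowest bin in both, without a steady fall over all barcodes.

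The barcode suffixes differed in their ribosomal protein mixture in a way that stayed without shared barcodes. In microglia the summed share was 4.05%, 4.20%, 4.81%, 5.58%, 5.96% and 5.37% in suffixes 1 to 6, and 4.0%, 4.19%, 4.82%, 5.69%, 6.56% and 5.44% without shared barcodes. Suffixes 4 to 6 were above suffixes 1 to 3. Per 1000 ribosomal protein UMIs, the highest suffix was 1.5-fold or more above the lowest for 16 of 83 members, against 48.2% of all genes, and for 18 over unshared barcodes, against 75.7%. Dividing by the family also moves every gene outside it when the summed share differs between suffixes, and most other genes have lower counts. On the CPM scale 38 members passed the same size, against 10% of all genes. Per 1000 ribosomal protein UMIs the median member had a ratio of 1.26 with or without shared barcodes.

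Rps28 varied most, at 4.42, 8.54, 14.8, 10.9, 14.2 and 7.98 per 1000 in suffixes 1 to 6, a ratio of 3.35, or 1.86 without suffix 1. Without shared barcodes it stood at 4.71, 9.65, 15.2, 11.5, 16.8 and 8.27, a ratio of 3.56. Suffix 1 was low and suffixes 3 and 5 were high in both. Rps27rt (2.44), Rpl36al (2.25), Rpl27 (1.98) and Rpl29 (1.95) were next, and were at 2.58, 2.17, 1.84 and 1.89 without shared barcodes. Rps25 was the steadiest, at 10.8, 10.7, 11.3, 11.1, 10.8 and 11.4 per 1000, a ratio of 1.06. Rps15 and Rpl23 were at 1.08 each.

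**Figure D5:**
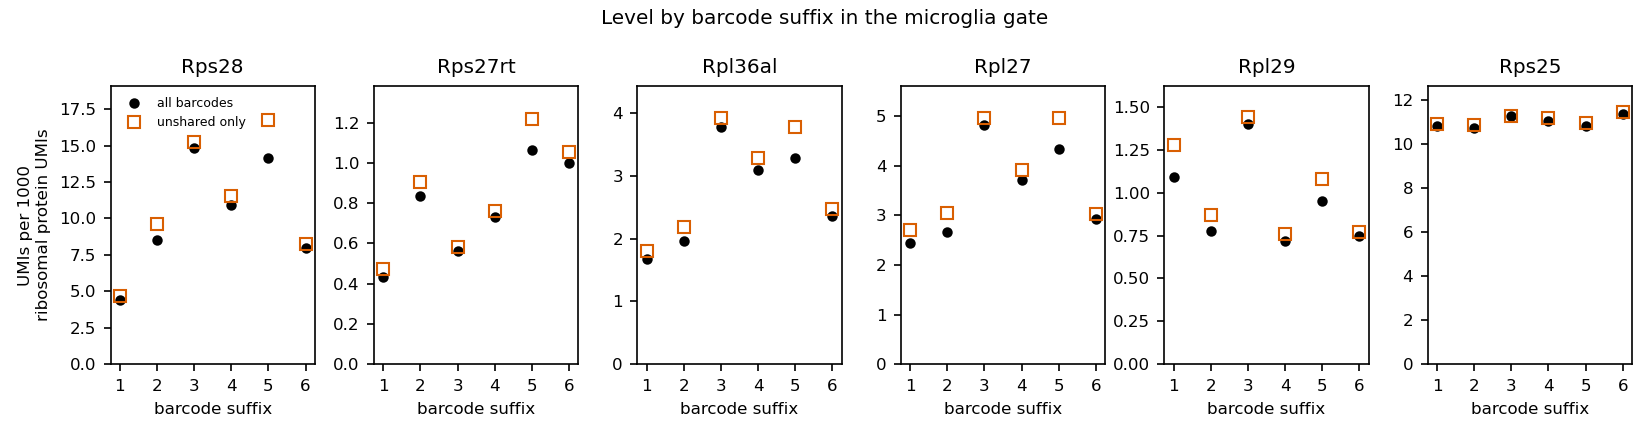
UMIs per 1000 ribosomal protein UMIs by barcode suffix in the microglia gate for named members, over all barcodes and over unshared barcodes. Rps28 runs from 4.42 in suffix 1 to 14.8 in suffix 3 over all barcodes, while Rps25 stays between 10.7 and 11.4.

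Variation from cell to cell was compared with what sampling of each cell's ribosomal protein UMIs would give. The values were taken within each suffix and UMI bin, over 34768 microglia with 20 or more such UMIs. The median member had a variance 1.03 times the sampling expectation, and 7 members were above 1.1. Rps29 (1.34), Rpl22l1 (1.33), Rpl10 (1.32), Rps27 (1.25) and Rpl10a (1.14) were highest. Over 22660 unshared microglia Rps29 was at 1.17 and Rps27 at 1.18, while Rpl22l1 (1.44), Rpl10 (1.44) and Rpl10a (1.18) were higher than over all barcodes. Rpl10 and Rpl22l1, which were also low in Spp1 positive Apoe high cells, thus had the highest values of these 5 members among unshared microglia. At the same relative spread a member with more UMIs gets a higher value, so these values do not rank members by relative spread.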

How the data were processed

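One table of raw counts was used: UMIs per gene and barcode, as deposited by the authors, with no normalization. Per the labels and the file header, reads (98 bases of cDNA) were aligned to mm10 and counted with Cell Ranger 3.1.0, and the libraries were aggregated. The submitters' processing notes also name Seurat 3.1.5. The labels name 3 mice per vector, and the 6 suffixes were not mapped to them.

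The members and lists were chosen with earlier results of these data known. Of 40411 barcodes, 1660 were dropped for 200 or fewer genes, more than 2500 genes, or a mitochondrial share of 5% or above. A gate needed 3 or more UMIs over its marker list and more UMIs on that list than on the 6 microglial genes, and NK, granulocyte, monocyte and dendritic gates also needed under 3% of counts on microglial RNA. The border macrophage gate held 2 cells and was not compared. Choroid plexus cells needed 3 or more genes of their list. Counts were summed per gate and given per 1000000 UMIs (CPM) or per 1000 ribosomal protein UMIs. Ratios carry exact conditional binomial intervals at 95%. A call needed 1.5-fold, 20 CPM over kept cells and the same side in every suffix with 20 cells of both gates. Members named were the 5 highest and 5 lowest in level, the paralogs and non-subunits, the 5 highest and 5 lowest per 1000 on the same side in every suffix for each comparison, and the 5 with the largest spread over suffixes, bins and cells. Rplp1, Rps6, Rpl22, Rpl28, Rpl35, the pair ratios and the shared barcodes were added after values were seen. Coding lengths came from GENCODE M21, matched by gene identifier for 84 of 84 members, and promoter windows from RefSeq on GRCm38.p6. No deposited column was left unused (0 columns). Python 3.11.15, numpy 2.4.6, scipy 1.17.1, pandas 2.3.3 and matplotlib 3.10.9 were used. Single values of a few genes are not reported here. The functions were tested on simulated data. Alternatives are given in the closing section.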

Additional observations from a re-analysis of the deposited data

How the results depend on the processing

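Of the summary values recomputed under alternatives, 168 moved by less than the tolerance and 39 moved more, mostly with their direction kept. Alternatives that separate shared barcodes, the microglia gate for Spp1 positive Apoe high cells or cells without granulocyte markers were chosen after seeing the data. With a total that leaves out mitochondrial genes, Malat1 and other genes above 1% of counts, the ratio to microglia was 3.00 in NK cells, 0.665 in granulocytes, 2.64 in monocytes, 3.11 in dendritic cells and 0.887 in choroid plexus cells. With suffixes weighted equally it was 3.21 in NK cells, 2.84 in monocytes, 3.39 in dendritic cells, 1.16 in cycling cells and 1.35 in Spp1 positive Apoe high cells. With cells of 1000 to under 3000 UMIs alone it was 3.80 in NK cells, 3.48 in monocytes, 1.12 in Ccl2 and Ccl12 high cells and 1.34 in Spp1 positive Apoe high cells, and with shared barcodes also removed it was 3.91 in NK cells, 3.54 in monocytes, 1.40 in cycling cells and 1.91 in Spp1 positive Apoe high cells. With no upper limit on genes it was 0.737 in granulocytes, 3.06 in monocytes and 1.36 in cycling cells, and with a stricter gate 0.730 in granulocytes. Thinned to 500 UMIs per cell it was 0.867 in granulocytes, 3.36 in monocytes and 4.17 in dendritic cells. Without shared barcodes it was 0.740 in granulocytes, 1.67 in Spp1 positive Apoe high cells and 1.03 in Ddit4 positive cells, which turned to the other side of 1. Over shared barcodes alone it was 1.38 in Ccl2 and Ccl12 high cells, 1.07 in cycling cells and 1.27 in Spp1 positive Apoe high cells. The highest over the lowest suffix in microglia was 1.30 after thinning, 1.64 without shared barcodes, 1.62 with cells of 1000 to under 3000 UMIs as well, and 1.13 over shared barcodes alone. The cause of these shifts was not tested.

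Leaving out each suffix in turn gave ratios of 3.36 to 3.60 in NK cells, 0.752 to 0.811 in granulocytes, 3.04 to 3.29 in monocytes, 3.62 to 4.08 in dendritic cells, 1.02 to 1.08 in choroid plexus cells, 1.2 to 1.27 in Ccl2 and Ccl12 high cells, 1.22 to 1.28 in cycling cells, 0.828 to 0.893 in Ddit4 positive cells, 1.47 to 1.5 in Spp1 positive Apoe high cells, 1.49 to 1.64 for the UMI bins and 1.38 to 1.47 for the range over suffixes.

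Counts of members moved by more than 1.5 times in several settings. At 2-fold in place of 1.5-fold, 0 members were higher in cycling cells and 0 in Spp1 positive Apoe high cells, 3 in granulocytes and 25 in the deepest bin, 10 were lower in Ddit4 positive cells, and 3 passed over suffixes. At 1.5-fold, members higher in cycling cells numbered 3 to 34 over the other alternatives, the most without shared barcodes in cells of 1000 to under 3000 UMIs. Members higher in Spp1 positive Apoe high cells numbered 14 with suffixes weighted equally, 75 without shared barcodes in cells of 1000 to under 3000 UMIs and 4 over shared barcodes alone. Members lower in Ddit4 positive cells numbered 11 with no upper limit on genes. Higher in granulocytes were 10 after thinning and 3 with the reduced total, and higher in Ccl2 and Ccl12 high cells were 25 over shared barcodes alone.

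Values of 1.5-fold or more per 1000 ribosomal protein UMIs that changed side were those of Rps19bp1 in granulocytes (0.969 without suffix 6, and 0.969 to 2.53 over the suffixes left out), Rps27rt in cycling cells (1.54 after thinning), Rpl38 (1.01) and Rps21 (1.07) in Ddit4 positive cells without shared barcodes, Rps29 (1.05), Rpl38 (1.07) and Rpl36al (1.66) there in cells of 1000 to under 3000 UMIs as well, and Rpl38 over the UMI bins (0.952 without shared barcodes). Smaller ratios changed side for Rps27 in cycling cells (1.1 over shared barcodes alone) and, without shared barcodes in cells of 1000 to under 3000 UMIs, for Rpl14 (0.595) and Rpsa (0.863) in Ddit4 positive cells and Rpsa (0.942) and Rps27rt (1.03) in Spp1 positive Apoe high cells. No paired analysis was possible because no label ties a suffix to a sample and no result comes from a test. Depth limits the granulocyte gate most, with 1893 ribosomal protein UMIs, followed by the choroid plexus gate with 29793.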
